A study of Mus musculus with 16 samples.

Results

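The 10 genes described here are antiviral genes that are switched on by interferon, namely Irf7, Usp18, Oas1a, Oas2, Oasl2, Ifit1, Ifit2, Ifit3, Mx1 and Rsad2. They were taken by symbol from the probe sets that the platform annotation assigns to a single gene, and all 10 were found among 19938 genes measured that way. Each had 1 such probe set. A further probe set of Oas1a also lists its close relative Oas1g and was not used. Whole lung RNA was measured on 16 Affymetrix arrays that probe the length of each transcript, in 4 groups of 4. WT denotes wild-type mice of strain B6129SF2/J, and KO denotes Vldlr-/- mice, which lack the receptor for very low density lipoprotein in every cell and whose strain the labels do not name. Each genotype received saline or 25 µg of house dust mite (HDM), an allergen that inflames the airways, through the nose in 10 µl, on 5 days a week for 6 weeks. The labels do not state age, sex or how many animals gave each RNA sample. They call the 4 arrays of a group biological replicates, so the p-values refer to the spread among such arrays.

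Type I and type III interferons are secreted when cells sense viral nucleic acid. They bind receptors that activate the kinases Jak1 and Tyk2, and a transcription complex that includes Stat2 and Irf9 then binds interferon-stimulated response elements in promoters. Irf7 is itself induced this way and raises further interferon production, while Usp18 removes the ubiquitin-like protein Isg15 from its targets and damps signalling at the receptor. The Oas enzymes sense double-stranded RNA, the Ifit proteins bind foreign RNA, Mx1 is a GTPase that blocks influenza viruses, and Rsad2 (viperin) makes a nucleotide that stops viral RNA synthesis. In lung these genes are known as a rapid response of epithelium and leukocytes to respiratory viruses.

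The promoters below show what 4 of the genes share upstream of their start. The core of the interferon-stimulated response element, taken as GAAA, any 2 bases and GAAA again on either strand, was searched in the 250 bases before each start site in RefSeq promoters of GRCm38.p6. Of the members, 7 had an entry in that table, and Usp18, Oas2 and Mx1 did not. A match was found in Oas1a, Ifit1, Ifit3 and Rsad2, which is 4 of 7 genes, against 2.98% of 32851 promoters of the same length. The latter share counts start sites, of which a gene can have several, so the units differ. Other type I interferon targets held it in 18 of 43. The 160 bases before the start are printed 5′ to 3′ in the direction of the gene, with the matches in capitals.
Oas1a, chr5:120907526-120907685, minus strand: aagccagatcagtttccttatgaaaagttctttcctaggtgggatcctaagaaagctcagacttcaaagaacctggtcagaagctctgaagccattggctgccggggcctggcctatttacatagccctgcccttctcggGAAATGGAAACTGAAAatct
Ifit1, chr19:34640729-34640888, plus strand: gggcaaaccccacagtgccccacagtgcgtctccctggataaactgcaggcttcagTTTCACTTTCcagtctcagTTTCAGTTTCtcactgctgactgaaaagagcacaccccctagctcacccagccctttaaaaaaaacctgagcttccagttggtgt
Ifit3, chr19:34583369-34583528, plus strand: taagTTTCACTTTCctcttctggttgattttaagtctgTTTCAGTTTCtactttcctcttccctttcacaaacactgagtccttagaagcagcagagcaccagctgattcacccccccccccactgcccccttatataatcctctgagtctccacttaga
Rsad2, chr12:26456453-26456612, minus strand: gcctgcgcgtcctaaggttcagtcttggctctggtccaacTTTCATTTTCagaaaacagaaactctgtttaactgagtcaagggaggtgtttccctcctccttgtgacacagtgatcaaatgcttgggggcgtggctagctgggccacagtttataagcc
Ifit1 and Ifit3 carry the same pair of matched letters, TTTCACTTTC and TTTCAGTTTC, which begin 104 and 85 bases before the start in Ifit1 and 156 and 122 bases before it in Ifit3. In Oas1a the matches overlap and begin 20 and 14 bases before the start, so that GAAA occurs there 3 times in a row at a spacing of 6 bases. These letters were not in the windows of Irf7, Oasl2 and both start sites of Ifit2. The 9-letter gamma-activated site TTCNNNGAA was in 2 of the 7 genes, Oas1a and Ifit2, against 7.02% of promoters, again counted by start site. Ifit1, Ifit2 and Ifit3 lie close together on chromosome 19 within 10 Mb of Vldlr, and Oas1a, Oas2 and Oasl2 are on chromosome 5.

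Values are on the log2 scale, where a difference of 1 is a 2-fold difference, and levels of different genes cannot be compared on these arrays. Vldlr itself lay between 9.40 and 9.91 on the 8 KO arrays and between 10.27 and 10.92 on the 8 WT arrays, without overlap. Whether its probe set lies in the deleted part of the gene is not stated. The mean of 11 lung markers, among them the surfactant genes Sftpc and Sftpb and the club cell gene Scgb1a1, was between 12.54 and 12.93 on all arrays, and it differed between the HDM groups as given with the other markers. Array medians lay between 8.78 and 8.85. A gene was called higher or lower at a Benjamini-Hochberg adjusted p under 0.05 in limma over all genes, with the spread estimated from all 4 groups.

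The comparison of KO with WT lungs after HDM asked how loss of the receptor bears on the allergen-exposed lung. In it 5 of the 10 genes were higher in KO lungs and none was lower: Irf7, Usp18, Oas2, Oasl2 and Ifit1. Over all genes 5.84% were called higher and 5.83% lower, 11.7% in all. The median difference over the 10 genes was 0.55, and over all genes it was 0.02. The direction was upward in 8 of 10, against 56.6% of all genes. The 10 genes varied together over the arrays (median pairwise r of 0.69), so their calls and directions are not separate observations. They were also chosen with earlier results of these data known. In all 10 genes the WT HDM and KO HDM arrays overlapped. Overlap was not counted over all genes in any comparison, so the share to read it against is not known.

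**Figure D1:**
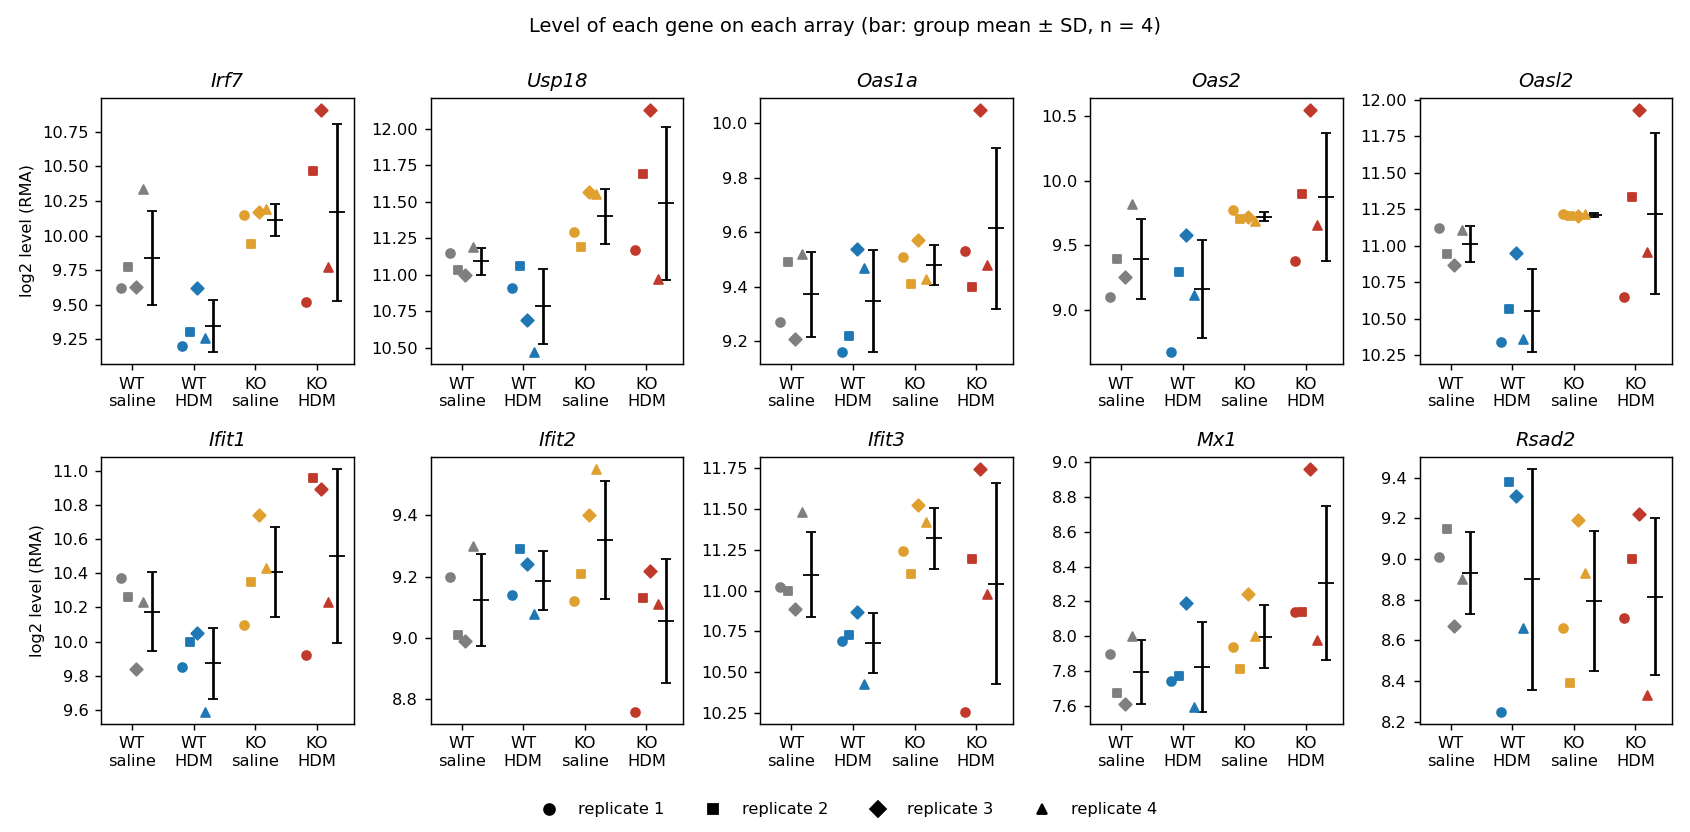
Log2 level of the 10 genes on each array by group, with the replicate number as the symbol and the group mean ± SD (n = 4) as a bar. KO HDM 3 is the highest of all 16 arrays for 7 of the 10 genes, and the KO HDM and WT HDM arrays overlap in all 10.

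The regulators Irf7 and Usp18 were both higher in KO. Irf7 was at 9.20, 9.30, 9.62 and 9.26 on WT HDM arrays 1 to 4 and at 9.52, 10.47, 10.91 and 9.77 on KO HDM arrays 1 to 4. KO HDM 2 and 3 were therefore above every WT array in either treatment, and KO HDM 1 fell below WT HDM 3. The difference was 0.82 (1.77-fold, SE 0.23, 4 arrays in each group, limma adjusted p = 0.0266). Usp18 was at 10.91, 11.06, 10.69 and 10.47 on the WT HDM arrays and at 11.17, 11.69, 12.13 and 10.97 on the KO HDM arrays. Only KO HDM 4 overlapped the WT HDM arrays, and the difference was 0.71 (SE 0.19, 1.64-fold, limma adjusted p = 0.0215).

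Among the Oas genes, Oas2 and the related Oasl2 passed and Oas1a did not. Oas2, which makes the oligoadenylates that activate RNase L, was at 8.67, 9.29, 9.58 and 9.11 on the WT HDM arrays and at 9.38, 9.90, 10.55 and 9.66 on the KO HDM arrays. The lowest KO HDM array lay below WT HDM 3, and the mean difference was 0.71 (SE 0.21, 1.64-fold, limma adjusted p = 0.0367). Oasl2, a relative of these enzymes, was at 10.34, 10.57, 10.95 and 10.36 under HDM in WT and at 10.65, 11.33, 11.93 and 10.96 in KO. There too a single KO array, KO HDM 1, lay within the WT HDM range, and the difference was 0.66 (SE 0.19, 1.58-fold, limma adjusted p = 0.0329). Oas1a was at 9.16 to 9.54 on the WT HDM arrays and at 9.53, 9.40, 10.05 and 9.48 on the KO HDM arrays. Its difference of 0.27 (95% confidence interval 0.01 to 0.52, limma adjusted p = 0.167) came with KO HDM 3 as the only array above the WT HDM range.

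Of the 3 Ifit genes, which are neighbours, Ifit1 passed, and differences between the 3 were not tested. Ifit1, which binds viral RNA with an uncapped or incompletely capped end, was at 9.85, 10.00, 10.05 and 9.59 on the WT HDM arrays and at 9.92, 10.96, 10.89 and 10.23 on the KO HDM arrays. KO HDM 1 alone fell in the WT HDM range, and the difference was 0.63 (SE 0.20, 1.54-fold, limma adjusted p = 0.0457). Ifit3, its partner in RNA binding, was at 10.43 to 10.87 in WT and at 10.26, 11.19, 11.74 and 10.98 in KO, so that the KO group held both the lowest and the highest of these 8 arrays. Its difference was 0.36 (95% confidence interval -0.09 to 0.81, limma adjusted p = 0.301), and without KO HDM 1 it was 0.62 and passed (limma adjusted p = 0.0407). Ifit2 ranged from 9.08 to 9.29 in WT and from 8.76 to 9.22 in KO, with a difference of -0.13 (95% confidence interval -0.35 to 0.09, limma adjusted p = 0.475).

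Mx1 and Rsad2, effectors outside these families, did not pass. Mx1 was at 7.74, 7.77, 8.19 and 7.59 in WT and at 8.14, 8.14, 8.96 and 7.98 in KO, a difference of 0.48 (SE 0.17, 1.4-fold, limma adjusted p = 0.0817). Many inbred laboratory strains carry a disrupted Mx1, and the allele of these mice is not stated in the labels. Rsad2 varied widely in both groups, between 8.25 and 9.38 in WT and between 8.33 and 9.22 in KO, with a difference of -0.09 (95% confidence interval -0.57 to 0.40, limma adjusted p = 0.856).

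**Figure D2:**
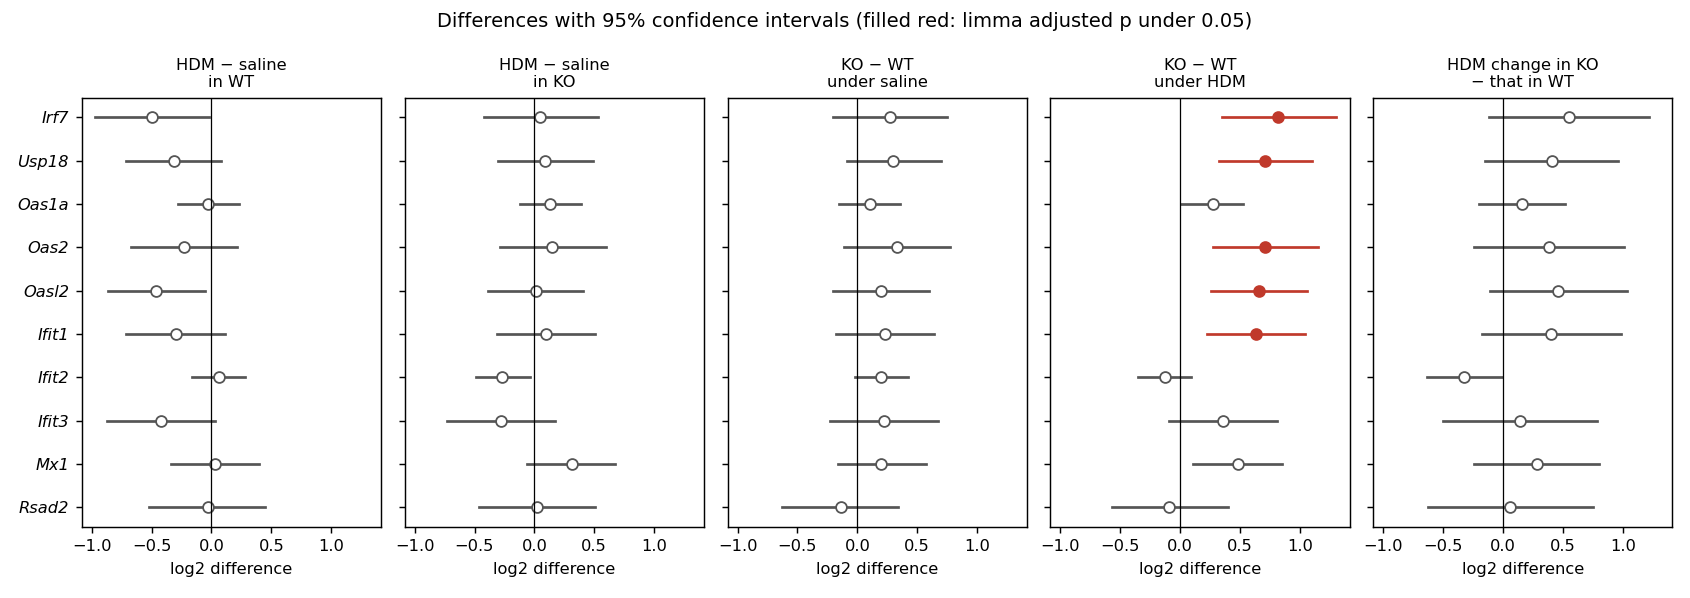
Log2 difference and 95% confidence interval of each gene in the 5 comparisons, from the fit of all 16 arrays. Filled red points passed at an adjusted p under 0.05, which 5 genes did for KO against WT under HDM and none did in the other comparisons.

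The genotype calls under HDM depended on single arrays. Of the 5 calls, 0 remained without KO HDM 2, without KO HDM 3 or without WT HDM 4, and 1, that of Usp18, without WT HDM 1 or without WT HDM 2. All genes called then numbered 1416, 1119, 1475, 2182 and 1249, against 2327 with all arrays. The count was 6 without KO HDM 1, KO HDM 4 or WT HDM 3, where all genes called numbered 968, 3831 and 2573. Without KO HDM 3 the difference fell to 0.57 for Irf7, 0.50 for Usp18, 0.48 for Oas2, 0.42 for Oasl2 and 0.50 for Ifit1. With both KO HDM 2 and 3 left out, an alternative chosen after seeing the data, the same 5 differences were 0.30, 0.29, 0.36, 0.25 and 0.20, and none passed. Over all genes 217 passed in that fit, so most calls among all genes were lost as well. A fit of the HDM arrays alone, where the spread comes from these 2 groups, also gave 0 calls among the 10 genes and 390 over all genes.

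**Figure D3:**
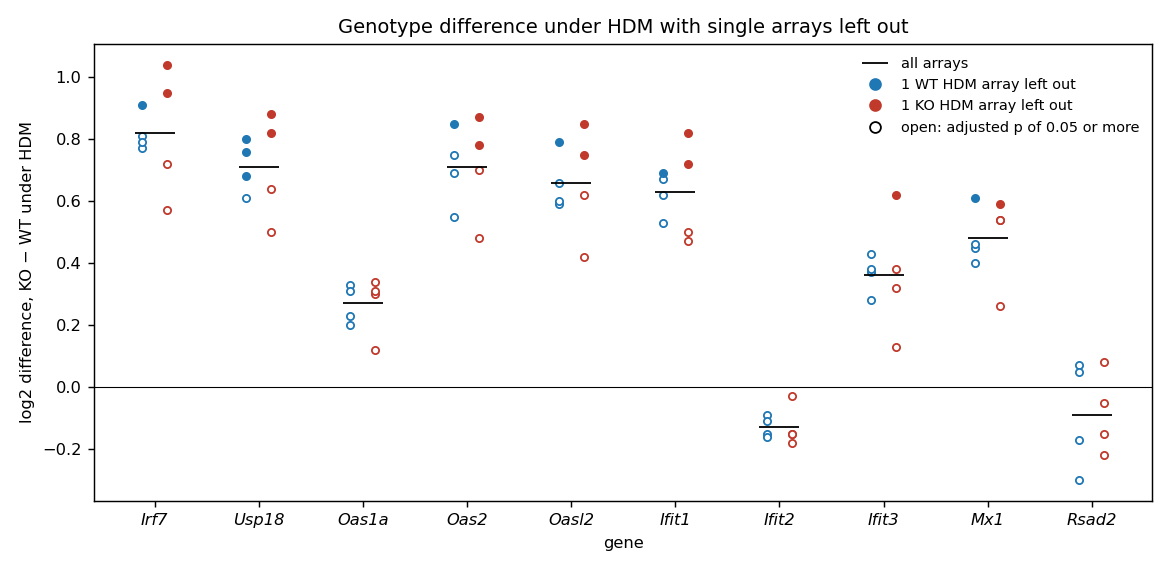
Log2 difference between KO and WT under HDM for each gene with all arrays (bar) and with 1 WT HDM (blue) or 1 KO HDM (red) array left out, filled where the adjusted p stayed under 0.05. Irf7 ranged from 0.57 to 1.04 and Usp18 from 0.50 to 0.88, and the lowest value came without KO HDM 3 in both.

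HDM against saline was the comparison of what the allergen did in WT lungs. None of the 10 genes passed, against 17.6% of all genes (7.86% higher and 9.72% lower), and at an unadjusted p under 0.05 there were 2, Irf7 and Oasl2, against 35.2% of all genes. The median change over the 10 was -0.27, against -0.05 over all genes, and 2 of 10 were above 0, against 38% of all genes. Irf7 was at 9.62, 9.77, 9.63 and 10.34 on WT saline arrays 1 to 4, with WT saline 4 clearly the highest, and its change under HDM was -0.50 (95% confidence interval -0.97 to -0.02, limma adjusted p = 0.128). Oasl2 went from 11.12, 10.94, 10.87 and 11.11 to the HDM values above, with WT HDM 3 inside the saline range, a change of -0.46 (SE 0.19, limma adjusted p = 0.1). For Ifit3 the lowest WT saline array was at 10.89 and the highest WT HDM array at 10.87. The change of Ifit3 was -0.42 (limma adjusted p = 0.17). The remaining 7 genes had changes between -0.31 and 0.06. With KO HDM 2 and 3 both left out of the fit, Irf7 and Oasl2 were called lower in this comparison (limma adjusted p = 0.0274 and 0.0162). Over all genes 3171 were then called in either direction, against 3505 with all arrays.

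In KO lungs the same allergen gave no called change either, against 8.84% of all genes (4.96% higher and 3.88% lower). The median change was 0.07 and over all genes -0.03. The gene with the smallest unadjusted p was Ifit2, at -0.27 (95% confidence interval -0.49 to -0.04, limma adjusted p = 0.135), with 9.12, 9.21, 9.40 and 9.55 on KO saline arrays 1 to 4. It was also the only member with an unadjusted p under 0.05 there, against 22.7% of all genes. Mx1 stood at 7.81 to 8.24 under saline and had a change of 0.31 (limma adjusted p = 0.314). For Oasl2 the 4 KO saline arrays lay between 11.20 and 11.22, an SD of 0.01, while the KO HDM arrays spread on both sides of them with an SD of 0.55 and a change of 0.01.

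Without allergen, KO and WT lungs differed by a called amount in none of the 10 genes, against 0.231% of all genes (0.0903% higher and 0.14% lower), and in none at an unadjusted p under 0.05, against 7.81% of all genes. The differences were above 0 in 9 of 10, against 46.5% of all genes, with a median of 0.21 against -0.01 over all genes. Because the 10 genes varied together over the arrays (median pairwise r of 0.69), their directions are not separate observations. The largest were 0.33 for Oas2 (95% confidence interval -0.11 to 0.77, limma adjusted p = 0.813) and 0.30 for Usp18 (95% confidence interval -0.09 to 0.70, limma adjusted p = 0.79). Oas2 was at 9.10, 9.39, 9.25 and 9.82 in WT and at 9.77, 9.70, 9.72 and 9.69 in KO, so that WT saline 4 lay above all KO saline arrays. Usp18 was at 11.15, 11.03, 11.00 and 11.19 in WT and at 11.29, 11.19, 11.57 and 11.55 in KO, with KO saline 2 level with WT saline 4 to 2 decimals. For Oasl2 the KO saline arrays exceeded the highest WT saline value of 11.12 by a small amount. Rsad2 was the exception in direction, at -0.14.

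Subtracting the WT response to HDM from the KO response gives the interaction, which tests whether the allergen acted differently in the 2 genotypes. None of the 10 genes passed, against 0.802% of all genes (0.356% higher and 0.446% lower). The median was 0.33 and over all genes 0.03, with 9 of 10 above 0, against 58.1% of all genes. The value was 0.55 for Irf7 (95% confidence interval -0.12 to 1.22, limma adjusted p = 0.422), 0.46 for Oasl2 (-0.11 to 1.03, limma adjusted p = 0.423) and -0.33 for Ifit2 (-0.64 to -0.01, limma adjusted p = 0.296). Ifit2 was the only member with an unadjusted p under 0.05, against 15.6% of all genes. A genotype difference that passed under HDM and did not under saline was thus not shown to differ between the treatments. The comparisons that share a group of arrays are not independent of each other.

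The group means had a common order in 6 genes. Irf7, Usp18, Oas1a, Oas2, Oasl2 and Ifit1 were highest in KO HDM, then KO saline, then WT saline, and lowest in WT HDM. For Irf7 these means were 10.17 ± 0.64 (SD, n = 4), 10.11 ± 0.12, 9.84 ± 0.34 and 9.34 ± 0.19. The KO HDM and WT HDM means, the ends of this order, differed by the test in these genes except Oas1a, and no pair of neighbours in the order passed it. Mx1 had the KO groups in the same order, with WT HDM at 7.82 and WT saline at 7.79. Ifit2 and Ifit3 were highest in KO saline, and Rsad2 in WT saline.

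The spread within groups was itself uneven. In 9 of the 10 genes the SD was largest in the KO HDM group, where the median SD over the members was 0.502, against 0.195 in WT saline, 0.235 in WT HDM and 0.184 in KO saline. Over all genes the median SD was 0.0953 in KO HDM and 0.0788, 0.106 and 0.0928 in the other groups, and 28.9% of genes had their largest SD in KO HDM. KO HDM 3 was the highest of the 16 arrays for 7 of the 10 genes, as it was for 6.63% of all genes.

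**Figure D4:**
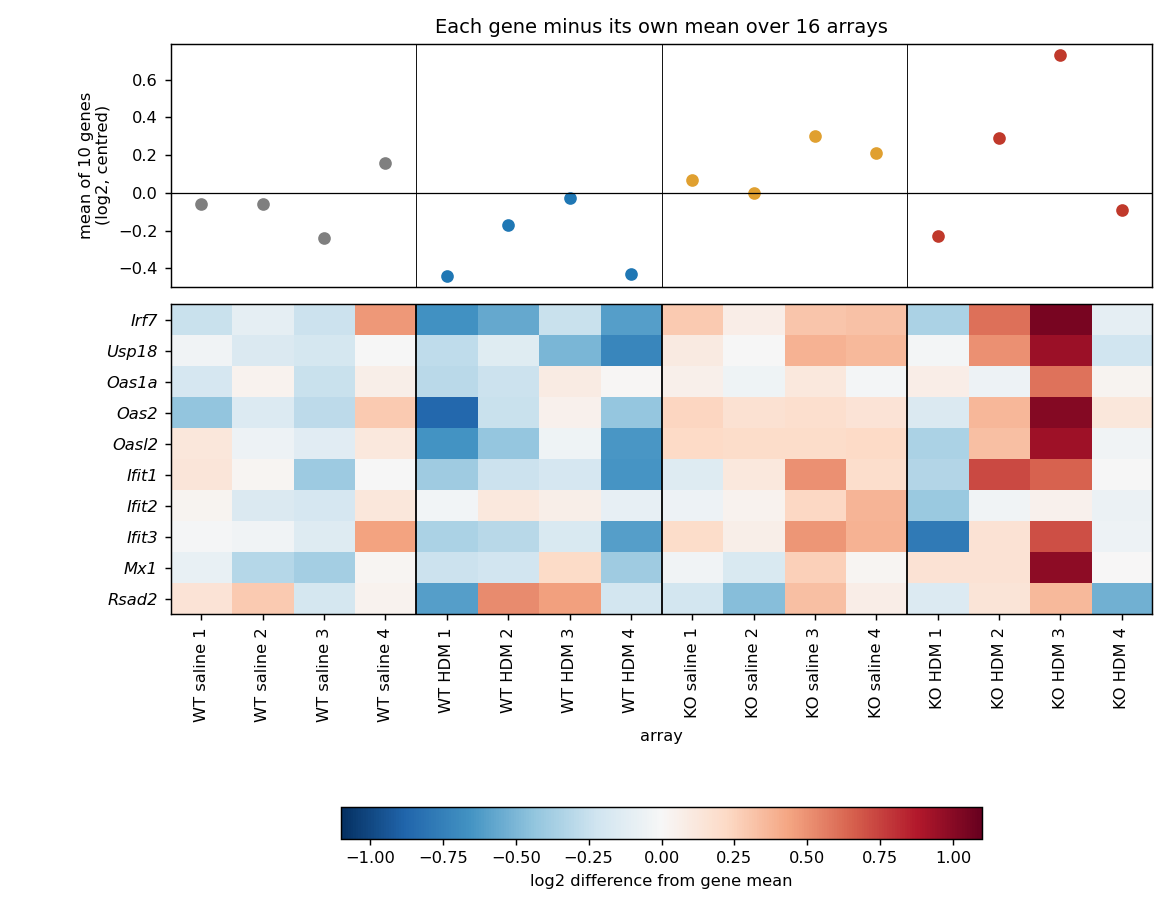
Each gene minus its own mean over 16 arrays (log2), as a colour per gene and array below and as the mean of the 10 genes per array above. KO HDM 3 stands highest at 0.73, WT HDM 1 and 4 lowest at -0.44 and -0.43, and the KO HDM arrays run from -0.23 to 0.73.

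The 10 genes varied together from array to array. Averaged over the 10 after subtracting each gene's own mean, KO HDM 3 stood at 0.73 and KO HDM 2 at 0.29, but KO HDM 4 at -0.09 and KO HDM 1 at -0.23. The WT HDM arrays were at -0.44, -0.17, -0.03 and -0.43. Saline arrays were closer together, from -0.24 to 0.16 in WT and from 0.00 to 0.30 in KO, with KO saline 3 second of all 16. All 45 pairs of members had a positive Pearson correlation over the 16 arrays, with a median of 0.69, a lowest value of 0.08 (Oas1a with Ifit2) and a highest of 0.93 (Irf7 with Oasl2). With the group means removed and the 4 groups pooled the median was 0.66. The KO HDM arrays, which spread most, weigh most in that value, and correlation within each group alone was not computed. Irf7 and Oasl2 followed the mean of the other 9 genes most closely (r = 0.93 each, with Spearman's rho of 0.90 and 0.91), and without KO HDM 2 and 3 at 0.88 and 0.86 over 14 arrays. Rsad2 (r = 0.39) and Ifit2 (r = 0.42) followed it least over all arrays, and with group means removed they stood at 0.65 and 0.69. These correlations describe the members and carry no test, and the arrays share their normalization.

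Among 18355 other named genes, those whose levels most resembled the mean of the 10 included 5 genes of the interferon lists among the first 8. Phf11d came first (r = 0.94 and rho = 0.92 over 16 arrays, r = 0.90 without KO HDM 3 and WT HDM 1, the arrays farthest from the median). Ddx60, a helicase that aids RNA sensing, followed with r = 0.88 and rho = 0.79, then Ddx58 (RIG-I), the sensor of uncapped viral RNA, with r = 0.87 and rho = 0.90. The next were Rpn1 (0.86), Parp9 (0.85), Cct6a (0.85), Rtp4 (0.85) and Ssr3 (0.85). Rpn1 and Ssr3 belong to the machinery that brings proteins into the endoplasmic reticulum and glycosylates them, and Cct6a is a chaperonin subunit. Phf11d, Ddx60, Parp9 and Rtp4 were on a list of other type I interferon targets and Ddx58 on a list of sensors. Of the 18355 genes 18 had an r above 0.8, and 8 of these were among the 45 measured genes of the list of other type I targets. The lowest values were those of Adamts10 (-0.84), Maml2 (-0.83) and Rgl3 (-0.82).

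The other genes of the pathway were counted by list, and each count under HDM between genotypes is to be read against 5.84% of all genes called higher and 5.83% called lower. Of 15 measured interferon ligands none passed between genotypes under HDM, with Ifnb1 at 0.02 and Ifng at -0.06, and the median of the list was 0.02. Of 16 receptor and signalling genes 3 were higher and 1 was lower. Stat2 was at 10.18 ± 0.03 (SD, n = 4) in WT HDM and 10.50 ± 0.18 in KO HDM (0.32, SE 0.07, limma adjusted p = 0.0112). Irf9, which joins it in the transcription complex, differed by 0.30 (SE 0.08, limma adjusted p = 0.0218), and Irf2, a repressor of this response, by 0.16 (limma adjusted p = 0.0428). The interferon gamma receptor chain Ifngr1 was lower (-0.26), and the type I receptor chain Ifnar1 was at -0.03 (limma adjusted p = 0.752). Without KO HDM 2 and 3 Stat2 was at 0.19, Irf9 at 0.17, Irf2 at 0.17 and Ifngr1 at -0.23, and none of the 4 passed. In that fit 217 of all genes passed, against 2327 with all arrays. Isg15 had no probe set of a single symbol here and has no value.

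Of 17 sensors and their adaptors 4 were higher and 1 was lower in KO under HDM. Sting1, the adaptor of cytosolic DNA sensing, differed by 0.52 (limma adjusted p = 0.0177), the adaptor Myd88 by 0.35, the DNA receptor Tlr9 by 0.35 and Irf5 by 0.29, while the RNA receptor Tlr3 fell by 0.37 (limma adjusted p = 0.0104). Of 45 other type I targets 4 were higher and 2 lower, a share near the 11.7% of all genes called, with a median of 0.08. Eif2ak2, the kinase PKR that halts translation, differed by 0.42 (SE 0.10, limma adjusted p = 0.0153), Ifi27l2a by 0.57 and Ifi27 by 0.30. Ifi44l went the other way and was lower in KO both under HDM (-0.62, limma adjusted p = 0.016) and under saline (-0.91, SE 0.15, limma adjusted p = 0.0161). Its saline arrays lay between 8.41 and 9.30 in WT and between 7.79 and 8.10 in KO. Trim30d was at -1.97 under HDM (SE 0.49, limma adjusted p = 0.0164), from 8.88 to 9.24 in WT HDM and from 6.85 to 7.24 in KO HDM. Its WT saline arrays were split, at 6.60, 6.42, 9.42 and 9.22, so that WT saline 1 and 2 lay at the level of the KO arrays. In the fit of the HDM arrays alone the difference was the same, with a limma adjusted p of 2.34e-05. Of 24 interferon gamma targets 4 were higher and none lower, namely Nos2 (0.72), the immunoproteasome subunits Psmb10 (0.52) and Psmb8 (0.38), and Irgm1 (0.27). Psmb10 and Nos2 passed in the interaction as well, at 0.67 and 0.81 (limma adjusted p = 0.0247 and 0.0424). Without KO HDM 2 and 3 none of the genes called in these 4 lists (receptors and signalling, sensors, other type I targets, gamma targets) passed under HDM, with limma adjusted p from 0.053 for Psmb10 to 0.472 for Irgm1. All genes called fell from 2327 to 217 in that fit. Among the larger differences, Sting1 was then at 0.36, Eif2ak2 at 0.19, Ifi27l2a at 0.29, Nos2 at 0.56 and Ifi44l at -0.50, while Tlr9 was at 0.38, Tlr3 at -0.41 and Trim30d at -2.10. Because the KO strain is not labelled, genotype and genetic background cannot be told apart in any of these values.

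Within WT, HDM raised 3 of the 17 sensors, the RNA receptors Tlr7 (0.95), Tlr8 (0.75) and Tlr3 (0.45), and lowered Myd88 (-0.33), while Irf9 fell by 0.24 (limma adjusted p = 0.0447). Over all genes 7.86% were called higher and 9.72% lower. Of the 45 other type I targets 4 were higher, such as Ifi205 (0.49) and Trim30a (0.44), and 2 lower, Ifitm1 (-0.47) and Ifi27 (-0.28), a share below the 17.6% of all genes. In KO, Irf5 rose by 0.46 and the kinase Jak2 by 0.44, and Ifitm1 was again lower (-0.66). From saline to HDM the WT means went up as well, from 10.49 to 10.85 for Jak2 and from 9.37 to 9.59 for Irf5. In KO 1 of the 17 sensors and 2 of the 16 receptor and signalling genes were higher, and none was lower. Over all genes 4.96% were higher and 3.88% lower in KO.

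Markers of some cell types differed between the same HDM groups. Plasmacytoid dendritic cells are known for making large amounts of type I interferon. Of 9 of their markers 2 were higher in KO, Siglech (0.46, limma adjusted p = 0.00218) and Lag3 (0.37). In all, 6 of the 9 were above 0, against 56.6% of all genes, with a list median of 0.10. Cox6a2 pointed down, at a mean of 10.04 in WT HDM and 9.86 in KO HDM, as did Il3ra and Ccr9. The mean of the list ran from 8.88 to 9.21 on WT HDM arrays and from 9.19 to 9.33 on KO HDM arrays. Of 12 monocyte markers 2 were higher, Plac8 (0.82) and Vcan (0.76), and 7 of the 12 were above 0 with a list median of 0.06, Fcgr4 being at -0.41 and F13a1 at -0.22. List means ran from 9.69 to 9.82 in WT and from 9.78 to 10.00 in KO. Of 12 neutrophil markers 2 were higher, Cxcr2 (0.99) and Il1r2 (0.98), and 7 of the 12 were above 0 with a list median of 0.07, Ngp being at -0.68 and S100a9 at -0.02. List means ran from 8.63 to 8.80 in WT and from 8.71 to 9.12 in KO. On KO HDM arrays 1 to 4 the neutrophil mean was 8.75, 8.89, 9.12 and 8.71 and the monocyte mean 9.84, 9.94, 10.00 and 9.78, so that both were highest on KO HDM 3 and next on KO HDM 2, as the 10 genes were. Single neutrophil markers differed in this. Cxcr2, Il1r2, Csf3r, Mmp8, Mmp9 and S100a9 were highest of the KO HDM arrays on KO HDM 3, and S100a8, Ly6g, Ngp, Camp, Ltf and Retnlg were not. Of 8 eosinophil markers 3 were higher, with means from 8.86 to 9.24 and from 9.21 to 9.85, and of 11 NK and T cell markers none passed. Other lists had another order on KO HDM arrays 1 to 4. The plasmacytoid dendritic cell mean was 9.33, 9.20, 9.32 and 9.19, highest on KO HDM 1. The eosinophil mean was 9.72, 9.57, 9.85 and 9.21, with KO HDM 1 next after KO HDM 3. The NK and T cell mean was 8.94, 9.08, 9.11 and 9.18, highest on KO HDM 4. Of 9 alveolar macrophage markers 3 were lower, with means from 10.31 to 10.70 in WT and from 10.16 to 10.43 in KO. In this list KO HDM 3 and 2 were the highest KO HDM arrays, at 10.43 and 10.40, as in the neutrophil and monocyte lists. Of the 11 lung markers 3 were lower in KO under HDM, Scgb1a1 (-0.94), Sftpb (-0.31) and Cdh5 (-0.26), and 1 was above 0 with a list median of -0.20. Their mean was 12.56, 12.54, 12.70 and 12.91 on KO HDM arrays 1 to 4 and 12.84 to 12.93 on the WT HDM arrays. Of 15 clock genes 1 was higher and 7 were lower in KO, with means from 10.24 to 10.59 in WT HDM and from 10.05 to 10.24 in KO HDM. Without KO HDM 2 and 3, Siglech (0.43), Il1r2 (0.48), Ear6 (1.16), Cidec (-0.82) and Dbp (-1.11) still passed, and the other marker and clock genes called here did not, among them Lag3 (0.27), Plac8 (0.64), Vcan (0.40), Cxcr2 (0.47) and Scgb1a1 (-0.85). Over all genes 217 passed in that fit, against 2327 with all arrays. The part of these markers in the differences of the 10 genes was not tested. In whole lung, fewer cells of a type and less RNA per cell cannot be told apart.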

How the data were processed

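The authors deposited log2 values for every probe set on every array. RMA, which corrects background, normalizes across arrays and summarises probe sets, and Affymetrix Expression Console are named in the submitters' processing notes. No version or genome build is named there. RNA was labelled from 50 ng, per the labels' protocols. Of 35556 probe sets 21789 had 1 symbol in the platform annotation, 1621 several and 12146 none here. By gene ID, 21698 matched the GRCm38.p6 table and 0 symbols changed. For 999 genes with several probe sets the one with the highest mean was kept. No filter was applied. Group means were compared in R 4.3.3 by limma 3.58.1 with its moderated fit on all 16 arrays, 4 group means, no covariate, two-sided, and was tested on simulated data. The number of arrays limits precision.

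Named genes were the 10 members, Vldlr, up to 4 called genes per list and comparison (filled to 2 by the smallest p), 7 pathway genes named everywhere, and the 8 most and 3 least correlated genes. The subset printed was chosen after the values were seen. Members and lists were chosen with earlier results of these data known. Promoter letters came from RefSeq. Alternatives were quantile and median scaling, dim-gene filters, a variance trend, array weights, 2-group fits, probe set means, the replicate number as a block and left-out arrays.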

Additional observations from a re-analysis of the deposited data

Results flagged for a closer look

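A single array lay far from the other 3 of its group in 2 of the 40 gene and group combinations, which is about the 1 in 20 that chance gives. Irf7 on KO saline 2 was at 9.94 with the next array at 10.15, a gap of 0.861 of the group's range. Mx1 on KO HDM 3 was at 8.96 with the next array at 8.14, a gap of 0.837 of the range.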

How the results depend on the processing

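For KO against WT under HDM the count of called members was 5 and became 1 with a variance trend and robust estimation, 0 with only the groups compared, 3 without WT saline 2 and 3 together, 0 without KO HDM 2 and 3 together (chosen after seeing the data), and 0 to 6 with single arrays left out. All genes called numbered 2327, and in the same settings 2320, 390, 1790, 217 and 968 to 3831. With the variance trend the count over all genes thus hardly moved, and with only the groups compared it fell too. Under HDM against saline in WT the count of called members was 0, and became 1 with only the groups compared, 2 without KO HDM 2 and 3, and 0 to 1 with single arrays left out. There all genes called numbered 3505, and in these settings 2787, 3171 and 1960 to 3799. The replicate number as a block gave 6 called members in place of 5 for KO against WT under HDM, with Mx1 at an adjusted p of 0.0484 in limma, and changed no other member's call. Over all genes the block gave 2519 calls for KO against WT under HDM, against 2327, and 258 in the interaction, against 160. Deviations of same-numbered arrays correlated between -0.28 and 0.33 over 24 pairs, with a median of 0.04, against 0.00 for other pairs. Of 16 arrays 6 correlated best with an array of their own number, and the share expected without pairing was not computed. The number was not taken as a pairing in the main fit. The other scalings and filters left the counts of called members as they were.

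No called difference changed sign under any alternative. Some differences that were not called did, and not all of them were near 0 with all arrays. The interaction was then 0.41 for Usp18 and 0.40 for Ifit1, and KO against WT under HDM was 0.36 for Ifit3. With single arrays left out, HDM in WT ranged from -0.09 to 0.04 for Oas1a, -0.10 to 0.11 for Mx1 and -0.19 to 0.18 for Rsad2. HDM in KO ranged from -0.19 to 0.27 for Irf7, -0.12 to 0.26 for Usp18, -0.01 to 0.20 for Oas1a, -0.07 to 0.32 for Oas2, -0.23 to 0.20 for Oasl2, -0.06 to 0.29 for Ifit1 and -0.11 to 0.19 for Rsad2. Rsad2 ranged from -0.30 to 0.08 for KO against WT under HDM and from -0.16 to 0.22 in the interaction, and Ifit3 from -0.09 to 0.40 in the interaction. Without KO HDM 2 and 3 HDM in KO was at -0.47 for Irf7, -0.33 for Usp18, -0.20 for Oas2, -0.41 for Oasl2, -0.33 for Ifit1 and -0.27 for Rsad2, KO against WT under HDM at -0.06 for Ifit3, and the interaction at -0.01 for Usp18, -0.02 for Ifit1, -0.28 for Ifit3 and -0.24 for Rsad2. Array weights gave 0.04 for Oas1a (HDM in WT) and 0.02 for Rsad2 (KO against WT under HDM), quantile normalization -0.02 for Oasl2 (HDM in KO), and omission of WT saline 2 and 3 -0.06 for Ifit2 and -0.13 for Mx1 (HDM in WT). Beyond smaller groups, the cause was not tested.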
